A study of Mus musculus with 3264 samples.

Results

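The genes described here are 10 regulators of the G1 phase of the cell cycle: the D-type cyclins Ccnd1, Ccnd2 and Ccnd3, the kinases Cdk4, Cdk6 and Cdk2, the kinase inhibitors Cdkn2a and Cdkn1b, the retinoblastoma gene Rb1 and the transcription factor gene E2f1. They were taken by name, and all 10 are rows of both deposited tables, which list 24781 genes for the cell line wells and 25051 genes for the blood wells. Mouse RNA was counted well by well, with 1 picked cell intended per well, from a mixture of a hematopoietic progenitor cell (HPC) line, a T cell line and a leukemia line, or from C57BL/6J mouse blood, as peripheral blood mononuclear cells (PBMC). Cells were placed either by ALPS, an imaging-guided automatic picker, or by fluorescence-activated cell sorting (FACS). The mixture was picked by type ("target" wells, 4 plates, with values for 73 HPC wells, 120 T wells and 30 to 34 leukemia wells per plate), after time-lapse imaging (16 plates), at random (4 plates, 330 wells) or by FACS (2 plates). PBMC were picked after time-lapse imaging (8 plates, 30 to 59 wells used per plate). The labels name the lines only by type, give them no strain, treatment or culture, and name no animal for the blood, so each group counts as 1 sample and no test between groups was possible. Wells were therefore summed per plate, and the spread given is that between plates, which are technical batches.

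A cell in G1 commits to another round of division when D-type cyclins, whose genes are switched on by growth signals, bind Cdk4 or Cdk6. These kinases phosphorylate the retinoblastoma protein, which then lets go of E2F factors, and E2F factors turn on cyclin E, S phase genes and E2f1 itself, after which Cdk2 takes over. The Ink4 inhibitors block Cdk4 and Cdk6, the Cip/Kip inhibitors act mainly on Cdk2, and blood cells are known to differ in which D cyclin and which of the kinases Cdk4 and Cdk6 they use.

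The sequences of 3 of these genes frame what follows, since Cdk4 and Cdk6 encode near interchangeable kinases with unlike patterns over the lines, and Cdkn2a gives 2 proteins from 2 starts. Sequences of the 250 bases before a start listed in a RefSeq table of build GRCm38.p6 were given for 7 of the 10 members. RefSeq and GENCODE starts can differ. The Cdk6 window and the E2f1 window (chr2:154569427-154569676, − strand, not printed) lie inside the GENCODE span of their gene given below, not upstream of it. They were searched on both strands for the E box bound by Myc, CACGTG, and for the E2F sites TTTCGCGC, TTTGGCGC, TTTCCCGC and TTTGCCGC. Capitals below mark these motifs, and each sequence runs 5′ to 3′ on the gene's own strand.
Cdk4, chr10:127063285-127063534, + strand: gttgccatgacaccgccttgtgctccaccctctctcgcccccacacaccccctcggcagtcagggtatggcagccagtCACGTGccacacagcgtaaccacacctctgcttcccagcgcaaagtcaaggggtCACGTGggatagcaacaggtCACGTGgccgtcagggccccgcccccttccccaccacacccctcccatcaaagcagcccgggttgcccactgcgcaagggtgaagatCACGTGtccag
Cdk6, chr5:3343643-3343892, + strand: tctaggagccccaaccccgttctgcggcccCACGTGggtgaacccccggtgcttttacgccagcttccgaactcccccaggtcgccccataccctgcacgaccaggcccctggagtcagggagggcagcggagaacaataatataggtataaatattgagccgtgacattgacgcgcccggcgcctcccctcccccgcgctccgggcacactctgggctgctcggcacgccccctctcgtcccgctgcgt
Cdkn2a, start at the 3′ side, chr4:89282193-89282442, − strand: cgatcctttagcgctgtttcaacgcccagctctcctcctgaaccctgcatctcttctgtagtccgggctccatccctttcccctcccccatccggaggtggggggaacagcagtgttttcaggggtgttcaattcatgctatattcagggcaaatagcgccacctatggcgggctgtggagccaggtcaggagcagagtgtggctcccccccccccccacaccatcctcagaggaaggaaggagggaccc
Cdkn2a, start at the 5′ side, chr4:89294620-89294869, − strand: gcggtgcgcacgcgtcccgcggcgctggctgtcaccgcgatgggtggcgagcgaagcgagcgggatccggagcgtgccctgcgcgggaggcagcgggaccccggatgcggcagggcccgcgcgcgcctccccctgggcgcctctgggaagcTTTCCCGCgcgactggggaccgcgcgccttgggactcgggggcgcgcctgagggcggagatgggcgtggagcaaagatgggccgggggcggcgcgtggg
The Cdk4 window held 4 E boxes and the Cdk6 window 1. Of the 32851 windows of the same length, 6.02% held an E box and 20 windows, or 0.0609%, held 3 or more. No other window of a member held one. One E2F site lay in the Cdkn2a window at the 5′ side and another in the Cdk2 window, which is not printed, and 1.86% of all windows held at least 1. The bases before the GENCODE starts of E2f1 and Cdk6 were not searched, so the lack of an E2F match in their windows does not cover them. A motif match is a description of letters and not of binding. The 2 starts of Cdkn2a give rise to transcripts for p16Ink4a, which blocks Cdk4 and Cdk6, and for p19Arf, which acts through p53. Both share their last exon, and each molecule was tagged at its poly(A) end, so the counts below cannot tell them apart.

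Tagging at the poly(A) end also means that counts scaled to a sum of 1e6 (CPM) of these genes can be set side by side without a correction for length. In the GENCODE annotation of GRCm38, Ccnd1 lies at chr7:144929931-144939925, Ccnd2 at chr6:127125162-127152193, Cdkn2a at chr4:89274471-89294653, Cdk2 at chr10:128697939-128705031, Rb1 at chr14:73183673-73325822 and E2f1 at chr2:154559407-154569892, all on the − strand. On the + strand, Ccnd3 lies at chr17:47505051-47599691, Cdk4 at chr10:127063534-127067920, Cdk6 at chr5:3341485-3531008 and Cdkn1b at chr6:134920401-134925513. Exons of 7 members overlap an exon of a gene on the opposite strand, and the sources used here do not give whether counting used strand. Of such partners with values of their own, Tspan31 overlaps Cdk4 over the longest stretch and stood at 29.8, 44.2 and 19.7 CPM in HPC, T and leukemia target wells. Bysl, which overlaps Ccnd3, stood at 57.4, 105.2 and 98.9 CPM. No such overlap was found for Cdkn2a, Cdkn1b or E2f1.

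Several wells go against their labels or stand apart. By the rank correlation of their RNA with the mean profiles of the labelled target wells, all T and all leukemia target wells matched their label, while 3 of 73 HPC-labelled wells, all on plate 4, did not: 2 had a leukemia profile and 1 a T profile. FACS wells matched their label in only 13 of 45 HPC, 24 of 68 T and 23 of 66 leukemia wells, so they enter only by their profile. Time-lapse and random wells carry no line label and were also named by profile, which gave 10 to 24 HPC, 6 to 30 T and 15 to 39 leukemia wells per time-lapse plate, and 21 to 32, 17 to 44 and 22 to 28 per random plate. Most time-lapse wells of every line fell in clusters that held few or no other wells. Those of T profile shared a cluster with no labelled well and kept 471.4 to 818.03 CPM of the 5 T markers per plate, against 1671 to 1746 CPM in random T wells. Thy1, a defining marker of the T line, stood at 0 to 21.5 CPM per plate in them, against 602.3 to 702.5 CPM in random T wells. Lck, Lat and Ly6a were also lower there, with no overlap of plates. The T marker Bcl11b was not, at 259.4 to 581.5 CPM per time-lapse plate, against 278.2 to 371.04 CPM per random plate. T wells of the target plates also split by plate: 30 of 31 wells of plate 1 and 30 of 32 of plate 2 fell in one cluster, and all 24 of plate 3 and all 33 of plate 4 in the other. The median well held 34189 counts in HPC, 37148 in T and 31868 in leukemia target wells, 42537 in time-lapse wells, 38194 in random wells and 2147 in PBMC wells.

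Each line had its own set of G1 regulators, and the sharpest differences were near all-or-none. HPC was the only line with more than 1 count of Ccnd1 over all its target wells, HPC and T wells carried Cdk6 while leukemia wells had a single count, and leukemia wells carried Cdkn2a at 149.2 CPM while T wells had none. Ccnd3, Cdk4, Cdk2 and Cdkn1b differed by less than 2-fold in the mean between any pair of lines. A member was called different when its mean log2 (CPM + 1) differed by at least 2-fold, with 1 direction on all 4 plates and at least 10 CPM in 1 of the lines. For T against leukemia wells, 4 of the 9 members measured at that level were called, 2 higher and 2 lower, where 27% of all 8263 measured genes were called. For HPC against leukemia wells, 5 of 10 members were called, 3 higher and 2 lower, beside 25.8% of all genes. For HPC against T wells, 4 of 10 members were called, 3 higher and 1 lower, beside 28.5% of all genes. These comparisons share lines and are not independent. The median log2 difference of the measured members was -0.24, 0.35 and 0.38 in that order, beside 0.01, -0.12 and -0.12 over all measured genes.

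**Figure D1:**
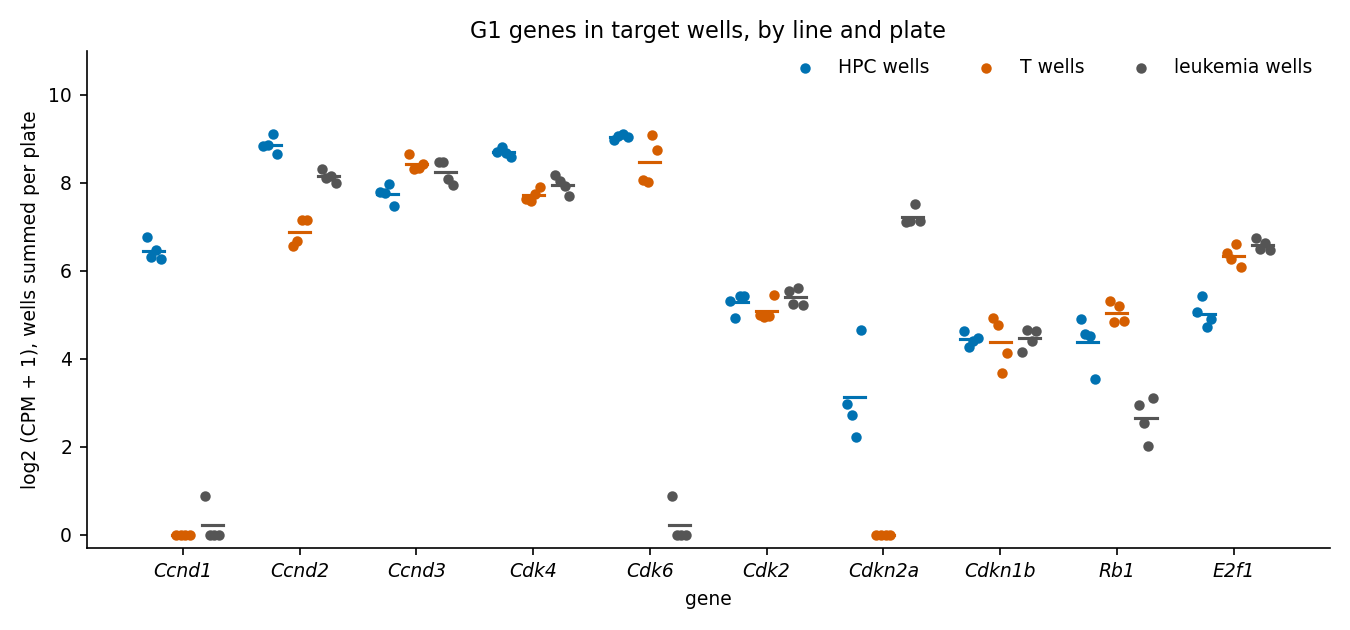
Log2 (CPM + 1) of the 10 members in target wells summed per plate, with HPC, T and leukemia wells side by side. Points are the 4 plates and short lines their means. Ccnd1 is off 0 on all plates only in HPC wells, Cdk6 sits near 0 only in leukemia wells, and Cdkn2a is highest in leukemia wells and at 0 in T wells.

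Among the D cyclins, the regulatory subunits that growth signals induce, Ccnd1 marked the HPC line. It measured 108.4, 78.8, 87.3 and 75.5 CPM on plates 1 to 4 in HPC wells, 0 on all 4 plates in T wells, and 0.845, 0, 0 and 0 CPM in leukemia wells. The HPC plates all lay far above the others, with no overlap. A Ccnd1 count was found in 69.9% of HPC wells (exact Clopper-Pearson 95% interval 58 to 80.1, which like all intervals here covers counting error only), in 0 of 120 T wells, which allows a share of up to 2.5%, and in 0.794% of leukemia wells. With wells thinned to 20000 counts, the shares were 64.1% of 64 HPC wells, none of the T wells and 0.862% of leukemia wells. Ccnd1 was at least 138.4-fold higher in HPC than in T wells, taking the floor of 3 counts over the T wells. Against the 1 count in leukemia wells the ratio was 370 (counting interval 65.6 to 14664).

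Ccnd2 was highest in HPC wells and lowest in T wells. It stood at 458.9, 460.997, 551.6 and 402.4 CPM in HPC wells, at 93.2, 100.9, 142.3 and 141.99 CPM in T wells, and at 316.5, 276.3, 284.7 and 253.8 CPM in leukemia wells. The 3 lines did not overlap on any plate. The log2 difference was 1.98 ± 0.35 (SD over 4 plates) for HPC against T wells and -1.26 ± 0.42 for T against leukemia wells, both called. For HPC against leukemia wells it was 0.72 ± 0.17, under 2-fold. Ccnd3 ran the other way, with 221.8, 217.5, 247.99 and 175.1 CPM in HPC wells, 402.5, 315.9, 319.7 and 344.4 CPM in T wells, and 352.4, 356.1, 271.02 and 244.5 CPM in leukemia wells. T and leukemia plates overlapped, HPC plates reached only the lowest leukemia plate, and no Ccnd3 difference was called (HPC against T -0.68 ± 0.28, HPC against leukemia -0.50 ± 0.26, T against leukemia 0.19 ± 0.27).

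Set against each other within a line, the D cyclins made a mixture that differed from line to line. In HPC wells Ccnd2 supplied 60.7% of the D cyclin counts (58.5 to 62.9), Ccnd3 28% and Ccnd1 11.3% (9.95 to 12.8). In T wells Ccnd3 supplied 74.3% (72.4 to 76.1) and Ccnd2 the other 25.7%. In leukemia wells Ccnd2 and Ccnd3 were near even, at 48% (46 to 49.9) and 52%. The total of the D cyclins was 765.6 CPM in HPC, 466.7 in T and 591.8 in leukemia wells. The same order held inside single wells: Ccnd2 exceeded Ccnd3 in 58 of 73 HPC wells (79.5%, 68.4 to 88), 7 of 120 T wells (5.83%) and 42.9% of leukemia wells. All 3 D cyclins were counted together in 51 of 73 HPC wells, in no T well and in 1 leukemia well.

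Of the kinases that D cyclins activate, Cdk4 was present in every line and Cdk6 in all but one. Cdk4 measured 417.4, 449.7, 407.5 and 385.8 CPM in HPC wells, 196.3, 190.4, 212.97 and 239.5 CPM in T wells, and 290.3, 260.3, 241.2 and 206.6 CPM in leukemia wells. HPC plates were above all others, and T and leukemia plates overlapped. The difference between HPC and T wells was 0.98 ± 0.23 on the log2 scale (plates 0.69 to 1.24), just short of 2-fold and past it without plate 3, and that between HPC and leukemia wells 0.74 ± 0.16. Cdk6 stood at 503.7, 533.5, 554.8 and 524.3 CPM in HPC wells, at 267.2, 258.9, 541.3 and 424.6 CPM in T wells, and at 0.845, 0, 0 and 0 CPM in leukemia wells. It was counted in 97.3% of HPC wells, in all 120 T wells and in 0.794% of leukemia wells (0.0201 to 4.34). The leukemia line thus held 1 Cdk6 count, a share of the Cdk4 and Cdk6 counts of 0.0935% (0.00237 to 0.520), where HPC wells had 56% (54 to 58) and T wells 63.5% (61.7 to 65.3). Against that 1 count the ratio was 2253 (403.7 to 89061) for HPC wells and 1567 (280.9 to 61933) for T wells.

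The plates of T wells differed more in Cdk6 than in Cdk4. The 267.2 and 258.9 CPM came from plates 1 and 2 and the 541.3 and 424.6 CPM from plates 3 and 4, the same plates that the clusters separated. Ly6a, a T line marker, went the other way, with 478.7 and 402.02 CPM on plates 1 and 2 and 197.9 and 189.9 CPM on plates 3 and 4. Lat, another T marker, moved with Cdk6, with 289.6 and 303.8 CPM on plates 1 and 2 and 445.6 and 473.8 CPM on plates 3 and 4. Thy1 stayed between 547.8 and 629.3 CPM on all 4 plates. The part of this split in the Cdk6 values was not tested. Cdk6 exceeded Cdk4 within the same well in 47 of 73 HPC wells (64.4%), 86 of 120 T wells (71.7%) and no leukemia well. Cdk2, the kinase that cyclin E and cyclin A use, showed no such pattern. It lay at 38.9, 29.6, 41.8 and 42.3 CPM in HPC wells, 30.9, 29.8, 30.2 and 42.5 CPM in T wells, and 45.6, 36.8, 47.5 and 36.01 CPM in leukemia wells. The 3 ranges overlapped, and Cdk2 was counted in 64.4%, 65% and 69% of the wells.

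**Figure D2:**
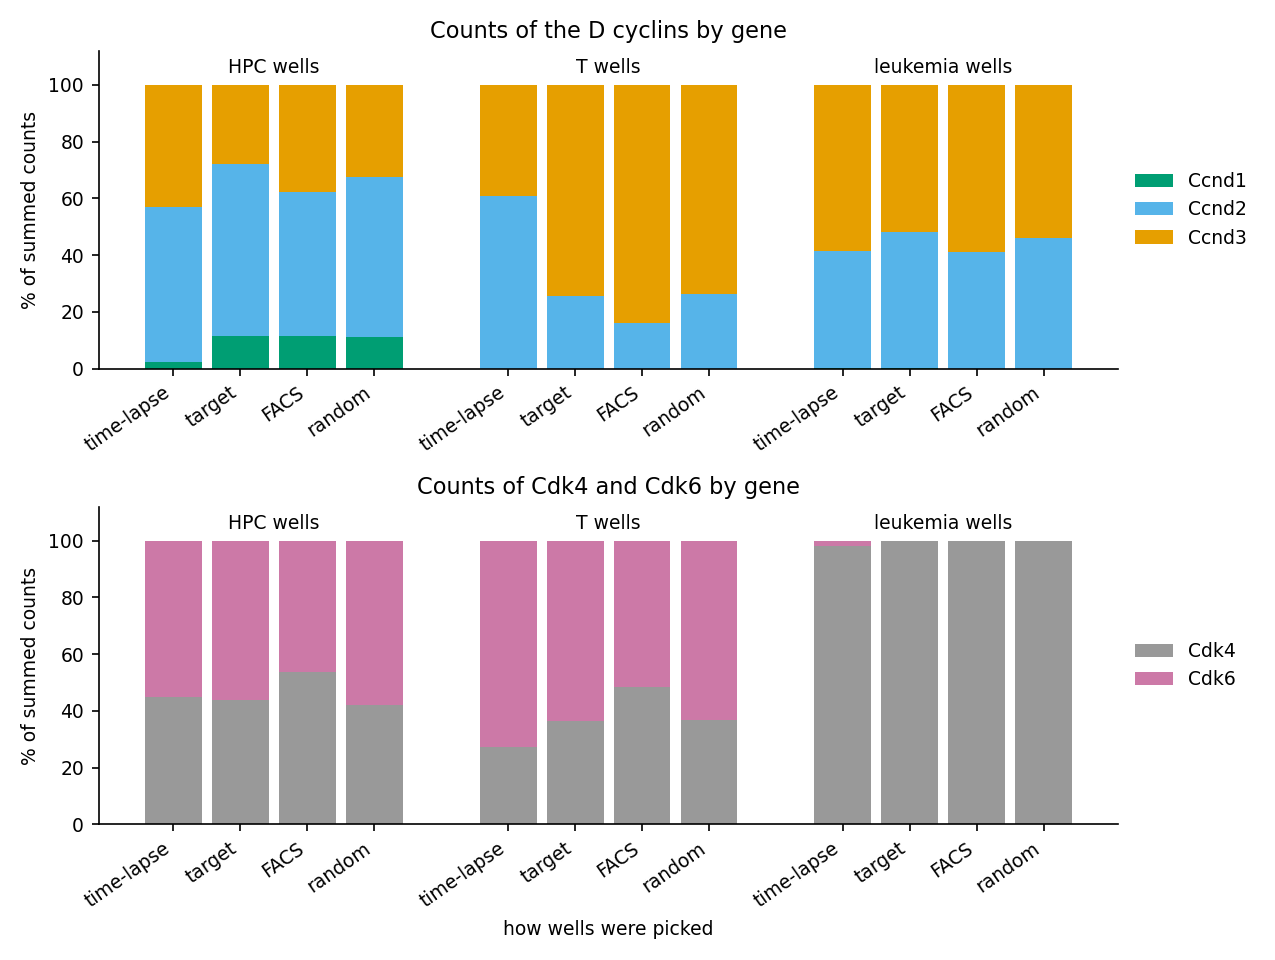
Share of the summed D cyclin counts held by Ccnd1, Ccnd2 and Ccnd3 (upper panel) and of the summed Cdk4 and Cdk6 counts (lower panel), in percent, for each line and way of picking. Ccnd2 holds 60.7% in HPC target wells and 25.7% in T target wells, and Cdk6 holds 0.0935% in leukemia target wells.

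The inhibitor gene Cdkn2a was a leukemia gene among these lines. It measured 6.77, 5.63, 3.64 and 24.2 CPM in HPC wells, 0 on every plate in T wells, and 137.8, 138.4, 181.02 and 139.8 CPM in leukemia wells. No plate of one line reached that of another. Cdkn2a was counted in 16.4% of HPC wells (8.79 to 27), 0 of 120 T wells (up to 2.5%) and 96% of leukemia wells (91 to 98.7). Thinned to 20000 counts, the shares were 14.1%, 0% and 92.2%. T wells stood at least 236.9-fold below leukemia wells, taking the floor of 3 counts, and the log2 difference of HPC against leukemia wells was -4.08 ± 1.17.

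The low Cdkn2a level of HPC wells rests in part on wells that go against their label. With the 3 such wells of plate 4, HPC wells held 26 counts and averaged 10.05 CPM. Without them they held 16 counts and averaged 6.85 CPM, under the minimum for a call against T wells, where HPC wells stood at least 16.5-fold higher with all wells. Counts did remain in wells with little leukemia RNA: 10 of the 12 HPC target wells with a Cdkn2a count had under 5 counts of the 4 leukemia markers. The same was true of 69 of 72 such wells after time-lapse imaging, 16 of 17 among random wells and 10 of 10 among FACS wells of HPC profile. No Cdkn2a count appeared in random or FACS wells of T profile, with median totals of 44508 and 29226 counts.

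Cdkn1b, the gene of the Cip/Kip inhibitor p27, did not separate the lines. It measured 23.7, 18.3, 20.01 and 21.1 CPM in HPC wells, 29.2, 26.1, 11.9 and 16.6 CPM in T wells, and 16.9, 24.2, 20.2 and 23.7 CPM in leukemia wells. The ranges overlapped, and the largest of the 3 mean differences was -0.09 ± 0.66. A count was present in 41.1% of HPC, 56.7% of T and 42.1% of leukemia wells, and in 29.7%, 37.8% and 31% after thinning.

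Rb1, which encodes the substrate of the D cyclin kinases, was low in the leukemia line. It measured 28.8, 22.5, 21.8 and 10.6 CPM in HPC wells, 38.7, 27.3, 35.6 and 27.9 CPM in T wells, and 6.76, 4.84, 3.03 and 7.58 CPM in leukemia wells. Leukemia plates lay below every plate of the other lines. The log2 difference was 1.72 ± 0.90 for HPC and 2.39 ± 0.59 for T against leukemia wells, and the ratio of summed counts was 3.67 (2.22 to 6.23) and 5.64 (3.65 to 9.07). With log2 (CPM + 10) the HPC difference was no longer called. At 20000 counts, Rb1 was found in 26.6% of HPC, 50.4% of T and 12.9% of leukemia wells.

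E2f1, the E2F factor that both follows and drives entry into S phase, was low in the HPC line. HPC wells had 32.2, 42.2, 25.5 and 28.7 CPM, T wells 83.3, 75.7, 96.5 and 66.4 CPM, and leukemia wells 106.9, 89.5, 98.1 and 88.1 CPM. HPC plates lay below all others, while T and leukemia plates overlapped. The log2 difference was -1.31 ± 0.44 for HPC against T wells, -1.56 ± 0.36 for HPC against leukemia wells and -0.26 ± 0.17 for T against leukemia wells. Summed over 16 S phase genes, HPC target wells had 2002 to 2660.1 CPM per plate, T wells 2110.1 to 3739 and leukemia wells 2881 to 3417. The order of the S phase sum was thus the order of E2f1, although HPC and T plates overlapped in the sum and not in E2f1. Of the 16 S phase genes, 4 were called for HPC against T wells and 2 for HPC against leukemia wells, all lower, beside 28.5% and 25.8% of all genes. Of 14 G2/M genes 2 and 4 were called, in both directions.

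The other genes of the G1 pathway were read from a list of 26 cyclin E, inhibitor, pocket protein, E2F and related genes. For T against leukemia wells 6 of 24 measured were called, 4 higher and 2 lower. For HPC against leukemia wells it was 7 of 24, 2 higher and 5 lower, and for HPC against T wells 7 of 23, 1 higher and 6 lower. The shares called over all genes were 27%, 25.8% and 28.5% in that order, so the list's counts lay near them. The median log2 difference of the list was 0.20, -0.29 and -0.64, beside 0.01, -0.12 and -0.12 over all genes. Cdkn1a, the p53-induced inhibitor p21, averaged 286.9 CPM in HPC wells, 133.3 in T wells and 0.126 in leukemia wells, the widest spread on the list. E2f6, an E2F that represses, averaged 34.7 CPM in HPC, 24.1 in T and 0 in leukemia wells, which puts HPC wells at least 49.7-fold and T wells at least 33.8-fold above leukemia wells. Cdkn1c, the inhibitor p57, ran the other way, with no count in HPC or T wells and 14.3 CPM in leukemia wells, at least 12.2-fold and 23.2-fold lower.

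The Ink4 gene Cdkn2c was a T line gene, with 15.5 CPM in HPC, 100.3 in T and 14.9 in leukemia wells. The leukemia line, which held Cdkn2a, was thus the line with least Cdkn1a, while Cdkn2c went with the T line. Cdkn2d, another Ink4 gene, was lower in HPC than in leukemia wells, at 29.1 and 62.4 CPM. Rbl1, the pocket protein p107, was higher in T wells (61.3 CPM) than in leukemia (26.4) or HPC wells (28.2). Among the E2F genes, E2f5 stood at 4.80, 14.3 and 35.2 CPM in HPC, T and leukemia wells. HPC wells also had less E2f2 than leukemia wells (24.9 and 67.5 CPM) and less E2f8 than T wells (21.7 and 44.9 CPM). Tfdp2, a partner subunit of the E2Fs, averaged 6.41 CPM in HPC, 13.2 in T and 23.3 in leukemia wells, and the S phase cyclin Ccna2 126.8 CPM in HPC and 295.4 in T wells. HPC wells were thus lower than another line in E2f1 and in 3 further E2F genes.

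Random wells, named by profile, gave a close mixture in T and leukemia wells. In HPC wells the pooled Ccnd2 and Ccnd3 shares differed beyond counting error, but their plates lay close together or overlapped. Ccnd2 held 56.3% of the D cyclin counts in HPC wells (54.3 to 58.2), 26.1% in T wells (24.6 to 27.6) and 46.1% in leukemia wells (44 to 48.3), and Cdk6 held 57.9%, 63.3% and 0.231% of the kinase counts. Ccnd3 held 32.7% in random HPC wells (30.8 to 34.5), above its interval of 26 to 30 in HPC target wells, and Ccnd2 held less there. By plate, the Ccnd2 share was 53.4 to 59.8% in random and 58.2 to 62.2% in target HPC wells. The lowest random plate for Ccnd3 had 28.9% and the highest target plate 28.7%. In FACS wells by profile, the Cdk6 share was 46.2%, 51.5% and 0%, and the Ccnd2 share 50.5%, 16.1% and 41%. Summed over plates, the order of the lines in both shares was the same in target, random and FACS wells. The 2 FACS plates lay far apart in the Ccnd2 share of HPC wells, at 38% and 69.8%. Leukemia wells had 39.3% and 42.7%, so their order with HPC wells did not hold on both plates. In random wells the T against leukemia difference of Ccnd2 was -0.80 and no longer a call.

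Time-lapse wells were compared with random wells of the same profile, since neither was picked by type. For T wells a shared profile does not establish a shared line, given the low Thy1 of the time-lapse wells. The question is how G1 genes stood in cells picked after imaging over time. In HPC wells all 3 D cyclins were lower and Cdkn1b higher, in T wells Ccnd3 was lower, and in leukemia wells no member was called. A call needed 2-fold in the mean over plates, at least 85% of the 16 time-lapse plates beyond every random plate, and 10 CPM in 1 group. It was met by 4 of 10 members in HPC wells, 1 higher and 3 lower (12.8% of 8361 genes), by 1 of 8 in T wells (19.8% of 8182 genes), and by 0 of 7 in leukemia wells (1.94% of 7723 genes). The median log2 difference of the measured members was -0.47, 0.12 and -0.15 in HPC, T and leukemia wells, beside -0.08, -0.02 and -0.11 over all measured genes. No plate holds wells of both kinds, so plate batch and imaging cannot be told apart.

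In HPC wells Ccnd1 measured 0, 3.83 and 20.1 CPM (lowest, median and highest of 16 time-lapse plates), against 83, 93.7, 57.5 and 77.4 CPM on the random plates. Every time-lapse plate lay below every random plate. A count was present in 11.5% of time-lapse wells (7.86 to 15.9) and 61.3% of random wells (51.5 to 70.4), and in 8.52% and 60.2% at 20000 counts. Summed over wells the level was 4.32 CPM after time-lapse imaging, against 79.3 CPM at random, and the mean log2 difference was -4.53, with an SD over plates of 1.40 in time-lapse and 0.30 in random wells. Ccnd2 measured 57.3, 100.4 and 214.8 CPM over the time-lapse plates, against 401.2, 356.6, 462.4 and 406.9 CPM at random. Again no plates overlapped, and the difference was -2.01 (SD 0.56 and 0.15).

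Ccnd3 in HPC wells measured 53.1, 80.2 and 117.8 CPM over the time-lapse plates, against 246.04, 217.2, 269.3 and 196.4 CPM at random, also without overlap, with a difference of -1.43 (SD 0.36 and 0.20). The D cyclin sum was 200.1 CPM in time-lapse and 716.4 CPM in random HPC wells. Within single wells, all 3 D cyclins were counted in 8.02% of time-lapse wells, against 61.3% of random wells, and none of them in 17 time-lapse wells and 1 random well. The differences of their kinases were smaller. Cdk4 differed by -0.48 (14 of 16 plates below every random plate) and Cdk6 by -0.57 (15 of 16), both under 2-fold.

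The inhibitor Cdkn1b was higher where the D cyclins were lower. It measured 28.5, 72.1 and 96.7 CPM over the time-lapse plates of HPC wells, against 23.7, 23.2, 28.7 and 31.3 CPM at random. On 15 of 16 plates it was above every random plate, and 1 plate lay among them. The difference was 1.22 (SD 0.43 and 0.20), and a count was present in 75.2% of time-lapse and 53.2% of random wells, or 66.8% and 39.8% at 20000 counts. Beside these changes, the 7 HPC markers summed to 1940.2 to 3223 CPM per time-lapse plate and 2211 to 2538 CPM per random plate. The median well held 33682 counts in time-lapse and 29584 in random HPC wells. The 16 S phase genes summed to a median of 1777 CPM over time-lapse plates, against 2420 CPM over random plates, and their part in these differences was not tested. Cdkn2a was found in 27.5% of time-lapse and 15.3% of random HPC wells, and its level differed by 0.94 (SD 0.91 and 1.19), with 11 of 16 plates above every random plate. Rb1 was 0.53 higher, also with 11 plates above, E2f1 0.46 lower with 1 plate below, and Cdk2 stood at 47.7 CPM in time-lapse and 47.98 CPM in random wells. None of these was called. Of 22 measured pathway genes 2 were called, beside 12.8% of all genes: Ccne1, a cyclin E gene, was lower by 1.98 and Ccnh, a subunit of the kinase that activates other Cdks, by 1.12 on the log2 scale. None was called higher, although 11 of the 22 differences were positive, and their median was 0.01.

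In T wells the D cyclins stood in the other order. Ccnd3 measured 110, 143.97 and 234.5 CPM over the time-lapse plates, against 385.4, 459.6, 429.2 and 396.1 CPM at random, with no overlap and a difference of -1.44 (SD 0.32 and 0.11). Ccnd2 measured 125.1, 229.6 and 311.9 CPM, against 134.6, 167.2, 174.9 and 120.96 CPM, above every random plate on 15 of 16 plates but only 0.62 higher (SD 0.32 and 0.25). Ccnd2 then held 60.7% of the D cyclin counts in time-lapse wells (plates 45.1 to 68.3%), against 26.1% in random wells (23.4 to 29%). It exceeded Ccnd3 in 71% of time-lapse wells (65.6 to 75.9) and in 3 random wells, or 2.52%. Cdk6 was 0.38 higher, above every random plate on 14 of 16 plates, and held 72.6% of the kinase counts. Cdkn1b measured 8.57, 43.6 and 76.8 CPM over the time-lapse plates, against 15.5, 14.8, 19.8 and 29.99 CPM at random, with 11 plates above and 3 below every random plate, so the plates of T wells differed among themselves. E2f1 was 0.31 higher, with 12 of 16 plates above. These are the wells with little Thy1, and the part of that difference in identity was not tested. Their median well held 58932 counts, against 44508 in random T wells.

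Of 23 measured pathway genes in T wells, 7 were called, 2 higher and 5 lower, beside 19.8% of all genes, and the list's median was -0.28, beside -0.02 over all genes. Tfdp2 was higher by 2.69 and Cdkn1a by 2.10 (326.03 CPM in time-lapse and 71.9 CPM in random wells). Cdkn2c, the Ink4 gene of the T line, stood at 11.6 CPM in time-lapse wells, against 123.7 CPM in random wells. E2f4 and Rbl2, which pair in resting cells, were lower by 2.26 and 1.61, and Tfdp1 and Ccna2 by 1.66 and 1.99. The inhibitor genes Cdkn1a and Cdkn2c thus differed in opposite directions in wells of T profile.

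In leukemia wells no member was called. The largest difference among measured members was that of Ccnd2, at 132.1, 184.5 and 241.8 CPM over the time-lapse plates, against 237.3 to 285.4 CPM at random, a difference of -0.55 with 15 of 16 plates below every random plate. Cdkn2a stood at 120, 152.2 and 273.9 CPM, against 115.04 to 127.2 CPM, which is 0.44 higher with 14 of 16 plates above. Of 22 measured pathway genes 1 was called, beside 1.94% of all genes: Ccnh was lower by 1.18, on 16 of 16 plates below every random plate, as it was called lower in HPC wells. Cdk6 was counted in 17 time-lapse leukemia wells, or 3.96%, with 75 counts in all, and 1 plate, plate 7, reached 50.1 CPM. Of these counts, 65 came from 6 wells with over 3 counts each, and those wells held 31 to 161.8 counts of HPC and T markers, where the wells without Cdk6 had a median of 3 and at most 19. In the same way, 21 of the 24.2 Cdkn2a counts of time-lapse T wells came from 4 wells with 22 to 31 counts of leukemia markers.

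**Figure D3:**
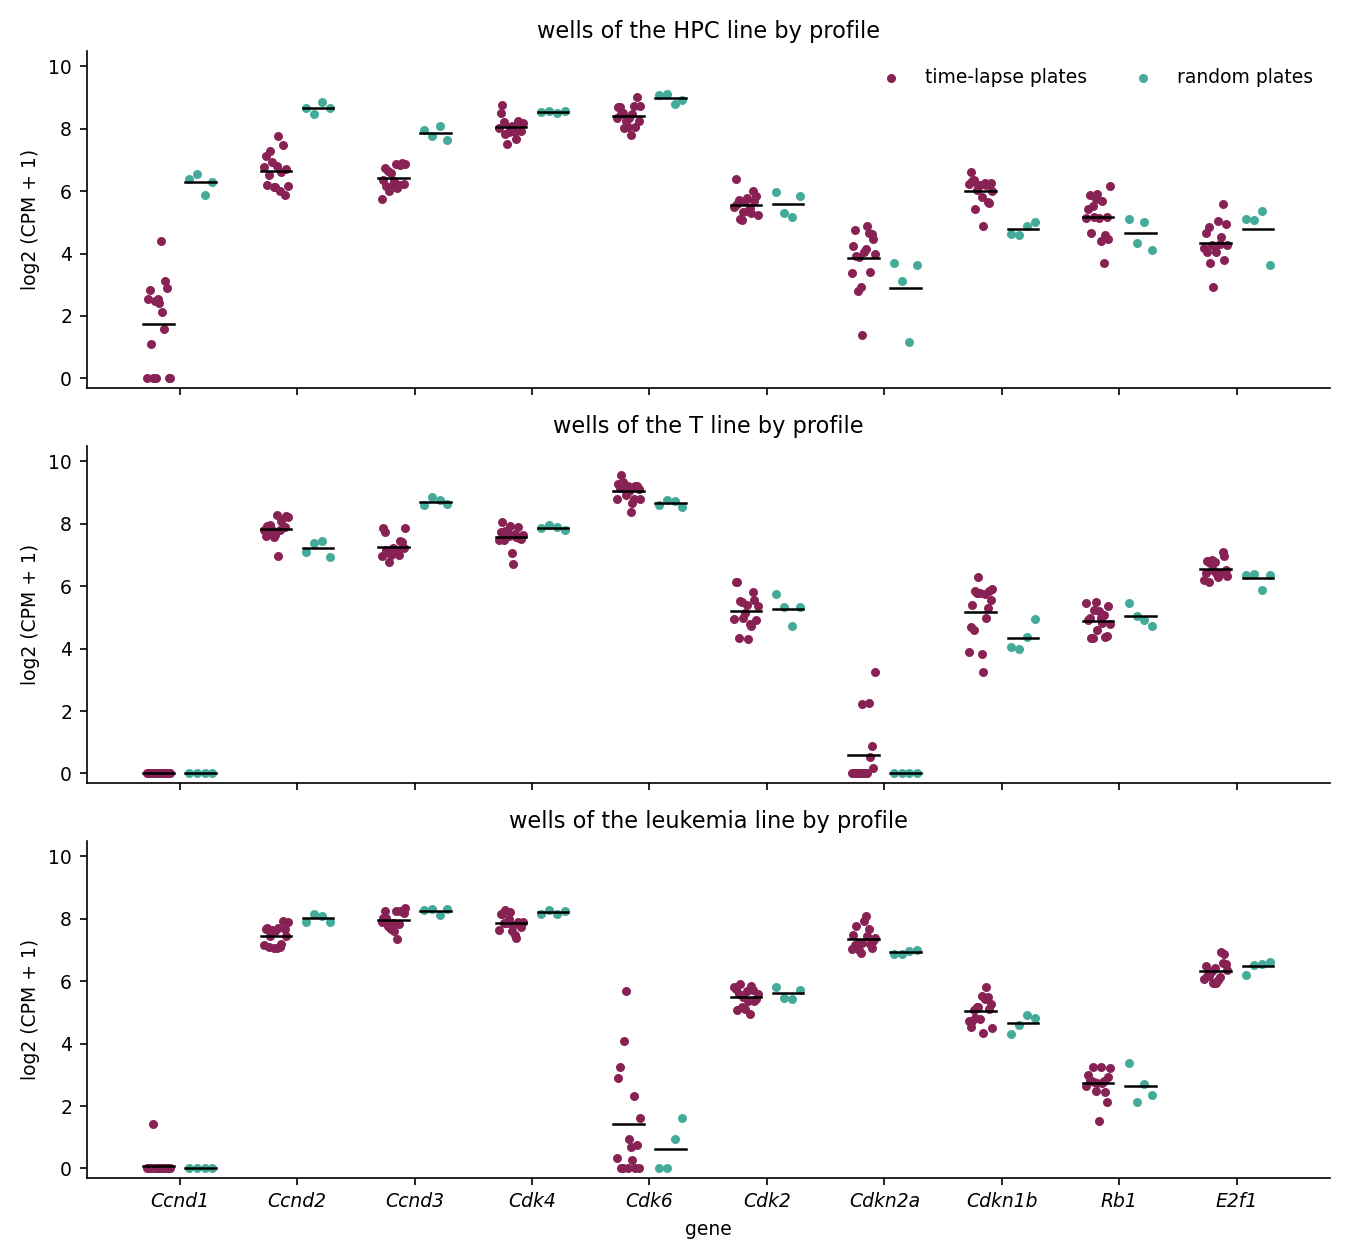
Log2 (CPM + 1) of the 10 members per plate in wells of each line by profile, with 16 time-lapse plates left of 4 random plates. Points are plates and short lines their means. In HPC wells the time-lapse plates lie below the random plates for Ccnd1, Ccnd2 and Ccnd3 and above them for Cdkn1b on 15 of 16 plates. In T wells all time-lapse plates lie below the random plates for Ccnd3.

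Within each line, the members differed in how far they went with the share of S phase genes from well to well, and E2f1, Cdk2 and Ccnd3 were higher with it in all 9 sets of wells. Wells of each line and way of picking were ordered by the share of their counts in the 16 S phase genes, which hold no member, and the upper and lower terciles were summed. In HPC wells E2f1 stood at 55.8 CPM in the upper and 9.20 CPM in the lower tercile of target wells (24 wells each), at 38.2 and 7.77 CPM in time-lapse wells and at 54.8 and 5.48 CPM in random wells. In T wells it stood at 97.02 and 48.03 CPM in target wells, 137.3 and 52.9 CPM in time-lapse wells and 103.5 and 44.9 CPM in random wells. In leukemia wells it stood at 129.1 and 52.6 CPM in target wells, 138.4 and 36.4 CPM in time-lapse wells and 133.2 and 40.5 CPM in random wells. E2f1 was higher in the upper tercile in all 9 sets.

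Cdk2 followed with smaller steps, for example 47.7 and 18.4 CPM in HPC, 41.05 and 24.7 CPM in T and 54.6 and 32.3 CPM in leukemia target wells. Ccnd3 was also higher in the upper tercile in all 9 sets, by smaller ratios, for example 216.2 and 187.9 CPM in HPC, 388.4 and 329.1 CPM in T and 330.9 and 289.4 CPM in leukemia target wells. Cdk4 was higher in 7 of the 9 sets. Over wells, Spearman's rho with the S phase share was 0.38 to 0.65 for E2f1 and 0.16 to 0.48 for Cdk2 over the 9 sets of at least 73 wells, beside 0.03 to 0.27 for Ccnd3, -0.02 to 0.36 for Cdk4 and -0.30 to 0.14 for Ccnd2. These values share a library and a depth in each well, and are a description. Depth moved with the S phase share in some sets: in time-lapse HPC wells the rho of that share with the total was 0.60 and the terciles had median totals of 39413 and 21315 counts, while in time-lapse leukemia wells they had 35000 and 45076.

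**Figure D4:**
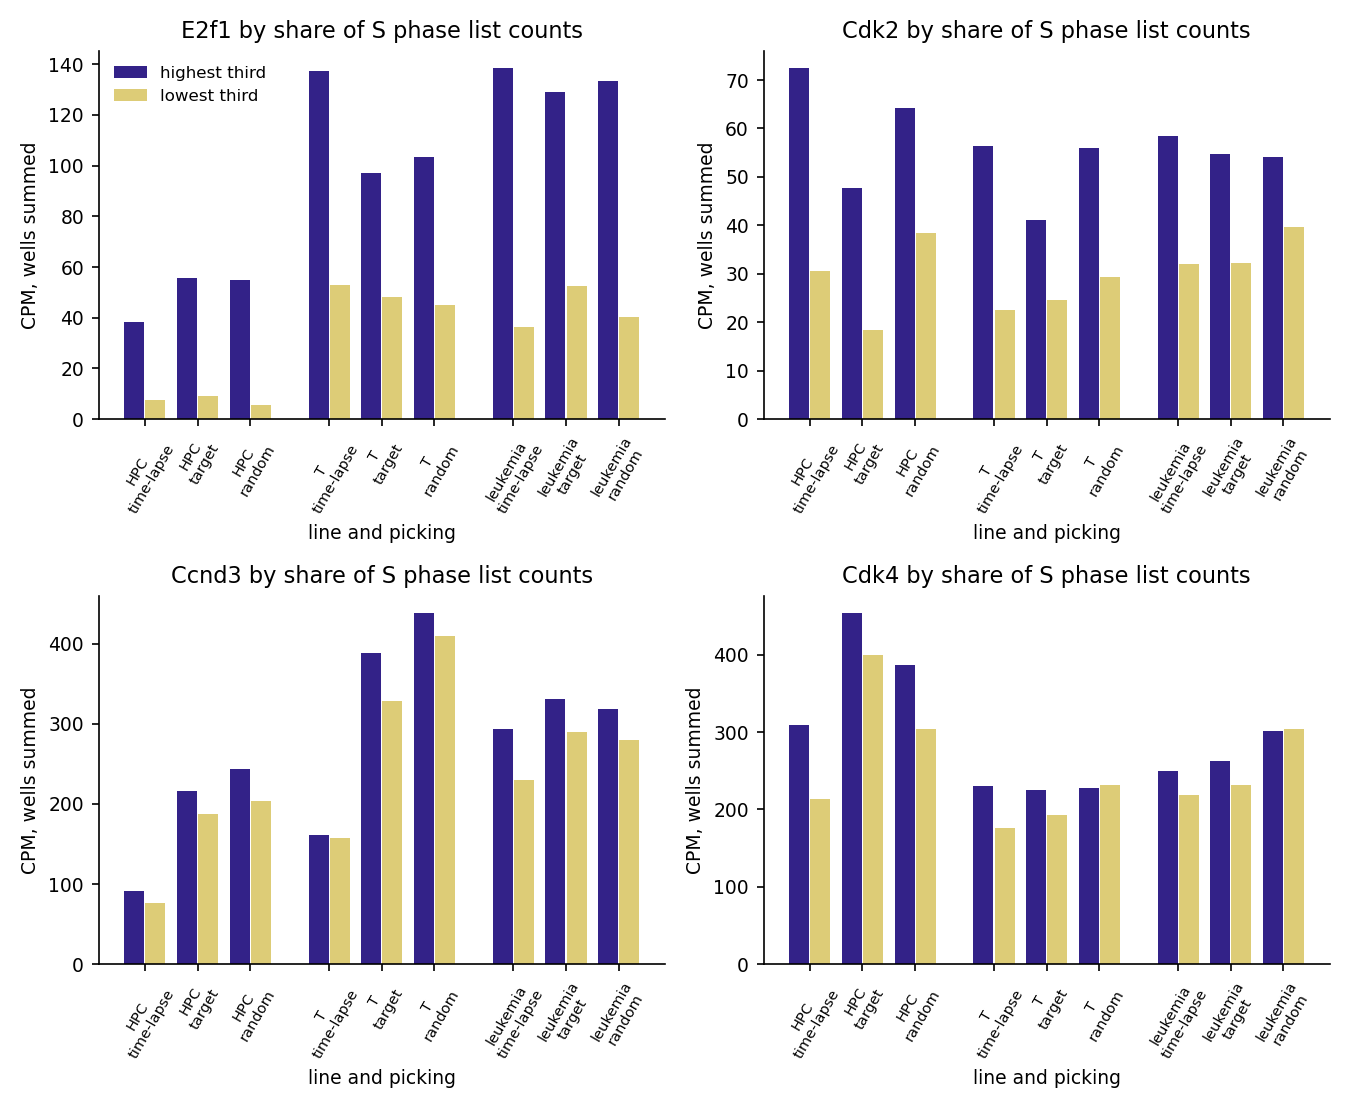
CPM of E2f1, Cdk2, Ccnd3 and Cdk4 in the upper tercile (dark bars, left) and the lower tercile (light bars, right) of wells ordered by their share of counts in 16 S phase genes, for each line and way of picking. E2f1, Cdk2 and Ccnd3 are higher in the upper tercile in all 9 sets and Cdk4 in 7 of them.

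Some genes had patterns over the 12 sums of line and plate most like those of the members. They were ranked by Pearson's r of log2 (CPM + 1) over 4052 genes, sums that share plates and lines. For Ccnd1 they were Chsy1, Ybx3 and Flt3, each with r = 0.996, and for Cdk6 they were Fabp5, Kcnn4 and Akap8, each with r = 0.994. For Ccnd2 they were Cmip (0.982), Il18r1 (0.974) and Erp29 (0.969). For Ccnd3, whose levels lie close together in the lines, the values were lower: Psmg1 0.877, Naa20 0.868 and Cenpm 0.865.

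Blood cells, which for the most part do not divide, showed another mixture of the same genes. PBMC wells were shallow, so single wells often had no count of a gene, and shares are set beside the lines only at 1500 counts per well. Over all wells used, Cdkn1b was the most frequent member, with 204.03 CPM and a count in 32.2% of wells (27.2 to 37.4). It ranged from 103.1 to 306.3 CPM over the 8 plates. Ccnd3 followed with 156.2 CPM and 28.6% of wells (23.9 to 33.7), with plates at 106.5 to 209.96 CPM. Ccnd2 had 90 counts, 113.4 CPM and 19.2% of wells (15.1 to 23.8), with plates from 37.5 to 283.7 CPM. The plates thus differed most for Ccnd2.

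The kinases were sparse in blood. Cdk4 had 36 counts (45.3 CPM, 9.14% of wells), Cdk2 29 counts (36.5 CPM, 7.37%) and Cdk6 14 counts (17.6 CPM, 3.24%). Rb1 also had 29 counts and 36.5 CPM, in 7.96% of wells. E2f1 had 4 counts in all, and Ccnd1 and Cdkn2a 1 count each. Ccnd3 made up 57.7% of the D cyclin counts (50.8 to 64.4), Ccnd2 41.9% (35.2 to 48.8) and Ccnd1 0.465%. Cdk6 made up 28% of the 50 counts of Cdk4 and Cdk6 (16.2 to 42.5).

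At 1500 counts per well, Cdkn1b was counted in 23.7% of the PBMC wells deep enough (18.9 to 29.2), against 5.48% of HPC (1.51 to 13.4), 5% of T (1.86 to 10.6) and 3.97% of leukemia target wells (1.30 to 9.02). The intervals of PBMC and of each line do not overlap. Cdk4 went the other way, with 5.04% of PBMC wells (2.78 to 8.31), against 46.6%, 28.3% and 29.4% in HPC, T and leukemia wells. Cdk6 was counted in 2.88% of PBMC wells, against 47.9%, 35.8% and 0%. E2f1 was counted in 1.08% of PBMC wells, against 4.11%, 14.2% and 14.3%. Ccnd2 stood at 14.4% in PBMC, against 56.2%, 22.5% and 27%, and Ccnd3 at 19.4%, against 28.8%, 35% and 33.3%. The intervals of PBMC lay below those of every line for Cdk4, and below those of HPC and T wells for Cdk6. For Ccnd2 they overlapped with T wells, for Ccnd3 and E2f1 with HPC wells, and in random T wells Ccnd2 stood at 16.8% (10.6 to 24.8). Cdk2 was counted in 5.76% of PBMC wells (3.33 to 9.18), against 1.37%, 2.5% and 3.97% of HPC, T and leukemia target wells. In random wells the shares were 8.11%, 9.24% and 7%. Every one of these line intervals overlaps that of PBMC wells, so no order is read from the Cdk2 shares. Rb1 was counted in 5.40% of PBMC wells (3.05 to 8.74), against at most 1.59% of the target wells and 3.60% of the random wells of any line, with intervals that overlap. Time-lapse wells of the lines, thinned alike, had Rb1 in 6.11%, 4.10% and 0.932% of HPC, T and leukemia wells. Ccnd2 stood at 13.4%, 22.7% and 26.8% in them, and Ccnd3 at 12.2%, 20.2% and 32.9%. HPC wells thus no longer exceeded PBMC wells in these 2 cyclins. Cdkn1b stayed lower than in PBMC wells, at 9.92%, 4.73% and 5.83%, and Cdk4 higher, at 26.7%, 32.2% and 26.1%.

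Blood wells were named by cluster from marker genes, of which 88 were B cell-like and 32 NK cell-like by their markers, 18 stayed unnamed and the rest were T cell-like. Ccnd2 was counted in 25.9% of T cell-like and 28.1% of NK cell-like wells but in 3.41% of B cell-like wells (0.709 to 9.64). At 1500 counts per well the shares were 17.9% (12.7 to 24.1), 15% (3.21 to 37.9) and 4.84% (1.01 to 13.5), and the intervals overlapped. B cell-like wells were shallower than T cell-like wells and deeper than NK cell-like wells, with medians of 1872, 2437 and 1662 counts. Ccnd3 was counted in 31.8%, 21.6% and 40.6% of T, B and NK cell-like wells, and Cdkn1b in 39.8%, 19.3% and 37.5%. Cdk2 was more frequent in B cell-like wells, at 15.9% (8.98 to 25.2), than in T cell-like wells, at 4.48%. T cell-like wells had 46.9% Ccnd2 among their D cyclin counts, and B cell-like wells 16% of only 25 such counts.

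**Figure D5:**
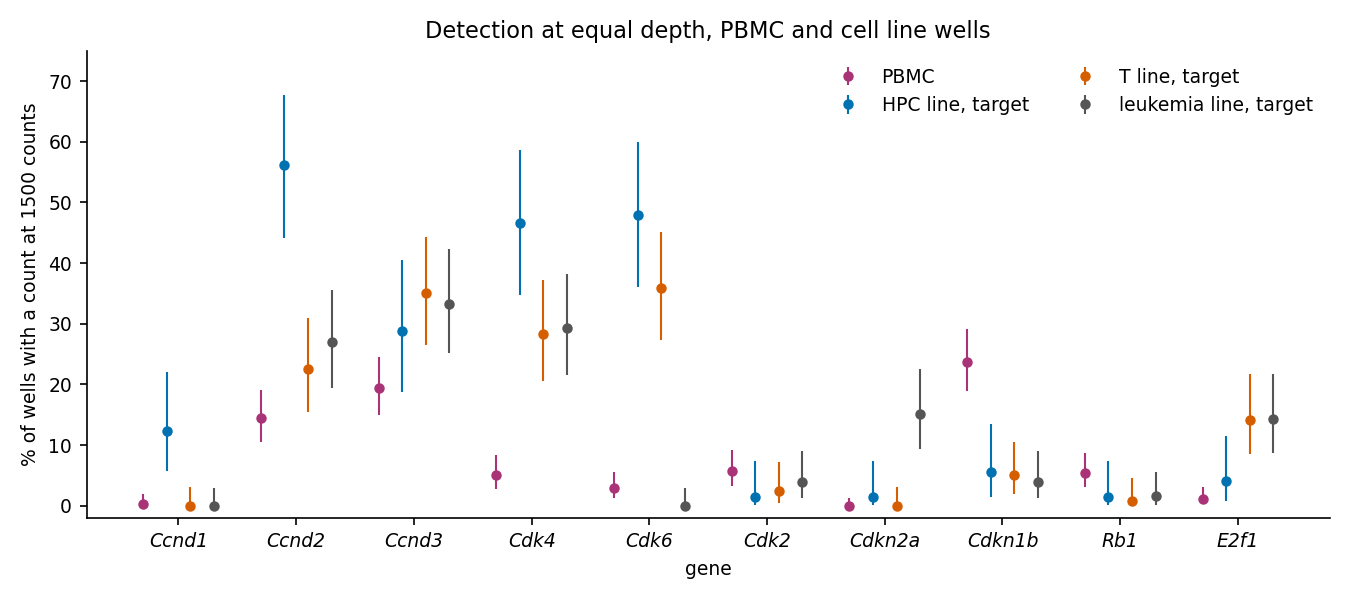
Percent of wells with a count of each member after thinning to 1500 counts per well, for PBMC wells and for target wells of each line. Bars are exact 95% intervals for counting error. Cdkn1b is highest in PBMC wells, and Cdk4 lowest in them.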

How the data were processed

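The deposited values are expected counts (molecules per gene in each well), made by the authors and left unscaled from well to well. Per the labels' protocols, RNA was fragmented and primed at its poly(A) end with molecular barcodes. Per the submitters' processing notes, bcl2fastq and STAR were used with mm10. Not given in the sources used here are the counter, annotation, use of strand and well filters. Some values are not whole, so no model for whole counts was run.

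Wells with at least 1000 detected genes (cell lines, all passed) or 300 (PBMC, all but 7 passed) were summed per plate and line and scaled to CPM. Totals ran from 10005 to 140363 counts per cell line well and from 1014 to 7992 per PBMC well. Target wells took the line of their label, and others the line whose target profile had the highest Spearman correlation, members and lists left out. Lines were compared within plates as log2 (CPM + 1), and time-lapse with random wells as the difference of means over plates with at least 5 wells of the line. A difference against a line at 0 rests on the constant added. For shares at equal depth, values were rounded, wells thinned to 20000 counts (lines) or 1500 (PBMC and lines), and shallower wells left out. Intervals are exact Clopper-Pearson 95% intervals, and floors are 3 counts. No doublet caller was run. PBMC clusters took the cell type whose markers led them.

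Named genes are all members, the pathway genes called between target lines (those called in time-lapse wells were named after their values were seen) and, for the D cyclins and Cdk6, the 3 genes of most similar pattern. The members and lists were chosen with earlier results of these data known. Alternatives covered the CPM denominator, added constant, summing, minimum CPM, plates, naming of wells, depth and wells against their label. The within-plate comparison was tested on counts simulated for T and leukemia target wells, with no spread between plates or cells beyond counting and depth. The time-lapse comparison, thinning, shares and naming of wells were not tested in this way. Tools were scanpy 1.11.5 with igraph 0.11.9 and leidenalg 0.10.2, scipy 1.17.1, pandas 2.3.3, numpy 2.4.6 and matplotlib 3.10.9 under Python 3.11.15.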

Additional observations from a re-analysis of the deposited data

Results flagged for a closer look

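Of 56 sets of plate values looked at, 5 held a plate that stood apart from the rest of its group, and chance alone gives such a plate in about 1 of 20 groups. Cdkn2a stood at 181.02 CPM on plate 3 of the leukemia target wells, where the other plates had 137.8 to 139.8 CPM. Cdk2 stood at 42.5 CPM on plate 4 of the T target wells, where the other plates had 29.8 to 30.9 CPM. Cdkn2a stood at 24.2 CPM on plate 4 of the HPC target wells, where the other plates had 3.64 to 6.77 CPM. That plate holds the 3 wells that go against their label, and without them its value was 11.4 CPM. E2f1 stood at 58.2 CPM on plate 3 of the random T wells, where the other plates had 80.7 to 83.3 CPM. Cdk2 stood at 75.003 CPM on plate 1 of the PBMC wells, where the other plates had 14.2 to 41.99 CPM.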

How the results depend on the processing

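No called member difference changed direction in any alternative run. All but 14 of the member differences, called or not, stayed within the spread over plates. Small differences that were not called could change direction. Cdkn1b averaged 20.8 CPM in HPC and 21.3 CPM in leukemia target wells, but 26.7 and 24.7 CPM in random wells. T against leukemia wells gave 4 called members except in random wells, where Ccnd2 dropped out and 3 were left. HPC against leukemia wells gave 5 except with log2 (CPM + 10), where Rb1 dropped out and 4 were left. HPC against T wells gave 3 to 5: Cdkn2a dropped out with log2 (CPM + 10), with the mean of wells and in random wells, Cdk4 came in without Rn45s or without plate 3, and without plate 4 or without the wells against their label Cdk4 replaced Cdkn2a. Time-lapse wells gave 4, 1 and 0 called members in HPC, T and leukemia wells in every alternative run, among them leaving out wells with a profile margin under 0.05. That alternative and the use of random wells for target wells were chosen after seeing the data. Naming wells by cluster gave no value for time-lapse T wells. Shares moved by more than 1 SD over the target plates in the following cases, most of them another way of picking. Ccnd1 held 2.16% of D cyclin counts in time-lapse HPC wells. Ccnd2 held 54.9% in time-lapse, 56.3% in random and 50.5% in FACS HPC wells, 60.7% in time-lapse and 16.1% in FACS T wells, and 41.5% in time-lapse and 41% in FACS leukemia wells. Ccnd3 held 43% in time-lapse, 32.7% in random and 37.9% in FACS HPC wells and 26.9% without the HPC target wells against their label, 39.3% in time-lapse and 83.9% in FACS T wells, and 58.4% in time-lapse and 59% in FACS leukemia wells. Cdk6 held 57.9% of the kinase counts in random and 46.2% in FACS HPC wells, 72.6% in time-lapse and 51.5% in FACS T wells, and 1.82% in time-lapse leukemia wells. The 57.9% and the 26.9% lie within the counting intervals of the target shares. The cause was not tested. By depth alone, thinning to 1500 counts put PBMC wells with a count at 19.4% for Ccnd3, 5.04% for Cdk4 and 23.7% for Cdkn1b. Differences between target lines were taken within plates. Beyond that, no paired analysis was possible because replicate numbers only name wells, and no result comes from a test.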
